A study of Mus musculus with 6 samples.

Results

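The miRNAs described here are both arms of the miR-126a hairpin, both arms of miR-221 and the 3p arm of miR-222, which are 5 of the 604 miRNAs in the deposited table. They were selected by name, as miRNAs known from endothelial cells though not all of them mainly from there, from a list drawn up with earlier results of these data known. No threshold on a measured value enters that rule, but the difference between NEC and Control had been seen, so the values of that comparison are given as a description. All 5 passed the filter on low values, which asks for a log2 value of at least 3.32 in at least 3 libraries and which 386 of the 604 miRNAs passed.

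The data came from necrotizing enterocolitis (NEC), a disease of the newborn intestine that was induced here in wild-type C57BL/6J mouse pups. Pups of the NEC group received 40 µl of 33% Esbilac formula by gavage every 4 h for 96 h from day 5, and were kept in 99.9% N2 for 100 s and then chilled for 10 min at 4 °C, both every 12 h, with PBS given by gavage as well according to the labels. Pups of the Control group stayed with the dam, had neither hypoxia nor cold, and carry the treatment label PBS. Small RNA of intestine (the methods name the ileum) was read in 3 libraries of each group, and since no source tells if each came from its own pup, p-values rest on a spread between libraries that may be technical.

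The endothelium lines every blood vessel of the gut wall, and miR-126 is the miRNA best known from it. It is cut from an intron of Egfl7, a gene of endothelial cells, and its 3p arm is known in mouse and zebrafish to sustain the response to vascular endothelial growth factor by lowering Spred1, an inhibitor of that pathway. The 5p arm is known in mouse to favour endothelial proliferation by lowering Dlk1. The paired miRNAs miR-221 and miR-222 are made by endothelium, smooth muscle and many other cells, and are known to lower the receptor Kit and the cell cycle inhibitor Cdkn1b. The endothelial marker list of this work holds the miR-126a arms alone, and the data offer no separate endothelial miRNA against which the label could be checked. In whole tissue, fewer cells of a type and less RNA per cell cannot be told apart.

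The mature sequences are shown because the seed (bases 2 to 8, in capitals) largely sets which transcripts a miRNA pairs with, and some members share it. RefSeq sequences on GRCm38.p6 matched 4 of the 5 members by name, and miR-126a-5p had no entry of its own. They read 5′ to 3′ as follows.
mmu-miR-126a-3p: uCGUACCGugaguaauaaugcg
mmu-miR-221-3p: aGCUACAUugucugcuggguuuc
mmu-miR-222-3p: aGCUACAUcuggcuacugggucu
mmu-miR-221-5p: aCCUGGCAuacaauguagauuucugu

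The 3p arms of miR-221 and miR-222 carry the same seed, and they are identical over their first 8 bases and at 11 of 23 positions when set side by side from the 5′ end, so that their reads differ beyond the seed. Among the 526 of 604 miRNAs of the table that have a RefSeq mature sequence, no other has that seed, and none shares the seed of miR-126a-3p or of miR-221-5p.

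The loci are given because the arms of a hairpin, and hairpins of a cluster, are cut from shared transcripts. On GRCm38 (mm10), Mir126a lies at chr2:26591357-26591429 on the plus strand, inside Egfl7 and an intron of the unnamed model Gm20532, and in 8 of the 9 annotated Egfl7 transcripts that span it the hairpin is intronic. In the other transcript an exon covers it. A second hairpin, Mir126b, of 58 bases, lies wholly within it on the minus strand, and the table has 0 entries by that name. Mir221 lies at chrX:19146294-19146388 and Mir222 at chrX:19146893-19146971, both on the minus strand with 504 bases between them. No gene of the GENCODE annotation was found to overlap either, in a search that left out genes with names starting in Mir. These are the RefSeq hairpins of miR-126a and miR-221, with the annotated arms in capitals.
Mir126a: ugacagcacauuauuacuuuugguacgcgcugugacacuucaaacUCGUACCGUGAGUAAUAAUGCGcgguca
Mir221: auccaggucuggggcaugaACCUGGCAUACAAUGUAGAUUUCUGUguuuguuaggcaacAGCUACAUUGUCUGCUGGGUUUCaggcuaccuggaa

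The values are the normalized log2 values that the authors deposited. The sources used here do not name the transformation, so log2 differences are given on the deposited scale and not as fold changes of reads. The 218 miRNAs below the minimum spanned a median of 0.75 over the 6 libraries and the 386 tested a median of 1.04. Levels of different miRNAs are not corrected for how well each was captured. The table holds no counts, so depth is unknown, although the median value per library was alike at 4.78 to 5.01. The library codes in the labels form 2 series. Control replicates 1 and 2 and NEC replicates 2 and 3 have codes of the first (code series 1), and the other libraries, NEC replicate 1 and Control replicate 3, have codes of the second (code series 2). The sources used here do not say what the codes stand for.

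The levels of the 5 miRNAs differed between hairpins and between arms. The arm miR-126a-3p was the 9th most abundant of 604 miRNAs, with a mean log2 value of 15.14 ± 0.33 (SD, n = 6) and 1.52% to 2.43% of the summed back-transformed values of a library. Its partner miR-126a-5p ranked 196th, with a mean of 6.99 ± 1.56 (SD, n = 6). Of the clustered pair, miR-221-3p ranked 126th at 8.44 ± 0.37 and miR-222-3p 202nd at 6.93 ± 0.41. The other arm of miR-221, miR-221-5p, ranked 292nd at 5.12 ± 0.36. The order from miR-126a-3p through miR-221-3p and miR-222-3p to miR-221-5p held in each of the 6 libraries. The place of miR-126a-5p was not fixed: it lay above miR-221-3p in both libraries of code series 2 and below it in the 4 of code series 1, and its mean differed from that of miR-222-3p by less than its spread.

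To explore whether NEC changed these miRNAs, NEC and Control libraries were compared across all 386 miRNAs with limma. None of the 5 differed between the groups at an adjusted p under 0.05, and the Control and NEC values overlapped for each of them. The test called 0% of all miRNAs tested, with 11 at an unadjusted p under 0.05, and the values of NEC and Control did not overlap for 9.84% of all miRNAs. With a term for the code series the count called was again 0, with 70 at an unadjusted p under 0.05 and a smallest adjusted p of 0.109, and none of the 5 members was among those 70.

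The most abundant member, mmu-miR-126a-3p, had log2 values of 14.87, 14.89 and 15.65 in Control replicates 1, 2 and 3 and of 15.43, 14.88 and 15.12 in NEC replicates 1, 2 and 3. The high values were 1 Control and 1 NEC library, and the means were nearly equal at 15.14 ± 0.45 and 15.14 ± 0.28 (SD, n = 3). The log2 difference, NEC minus Control, was 0.0047 (standard error, SE, 0.31 and limma adjusted p = 0.998), with a 95% interval from -0.72 to 0.73. With a term for the code series the interval ran from -0.35 to 0.35.

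The values of mmu-miR-126a-5p were 6.70, 5.38 and 8.98 in Control replicates 1, 2 and 3 and 8.69, 5.38 and 6.78 in NEC replicates 1, 2 and 3. Each Control library thus had an NEC library close to it, and the groups covered nearly the same range. The lowest value, 5.38, was identical in Control replicate 2 and NEC replicate 2, as described further on. The log2 difference was -0.069 (SE 1.07, limma adjusted p = 0.998), with a 95% interval from -2.58 to 2.44 that was the widest among the 5. With a term for the code series the standard error was 0.43 and the interval ran from -1.07 to 0.93.

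For mmu-miR-221-3p the values were 8.67, 8.67 and 8.07 in Control replicates 1, 2 and 3 and 7.88, 8.79 and 8.55 in NEC replicates 1, 2 and 3. The highest and the lowest of the 6 were both NEC libraries. The log2 difference was -0.063 (SE 0.33, limma adjusted p = 0.998), which splits into 0.0010 within code series 1 and -0.19 within code series 2.

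Its cluster partner mmu-miR-222-3p had values of 7.28, 7.32 and 6.59 in Control and of 6.30, 7.17 and 6.90 in NEC. Within each code series every NEC value lay below every Control value, as was so for 18.1% of all miRNAs tested, with 2 libraries against 2 in the first and 1 against 1 in the second. The log2 difference was -0.27 (SE 0.33, limma adjusted p = 0.998), and code series 1 alone gave -0.26 while code series 2 gave -0.29. With a term for the code series the adjusted p was 0.311 and the 95% interval ran from -0.60 to 0.059.

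The less abundant arm mmu-miR-221-5p had values of 5.66, 5.36 and 4.80 in Control and of 4.68, 5.14 and 5.07 in NEC. Here too every NEC value lay below every Control value of its code series, again against 18.1% of all miRNAs tested, while every NEC value lay above for 17.4%, which makes 35.5% in either direction. The other 3 members did not separate in this way. The log2 difference was -0.31 (SE 0.30, limma adjusted p = 0.998), and code series 1 alone gave -0.40 while code series 2 gave -0.12. With a term for the code series the adjusted p was 0.310. A test of whether the difference between NEC and Control itself differed between the code series (interaction term in limma) gave adjusted p-values of 0.979 to 0.987 for the 5 members.

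**Figure D1:**
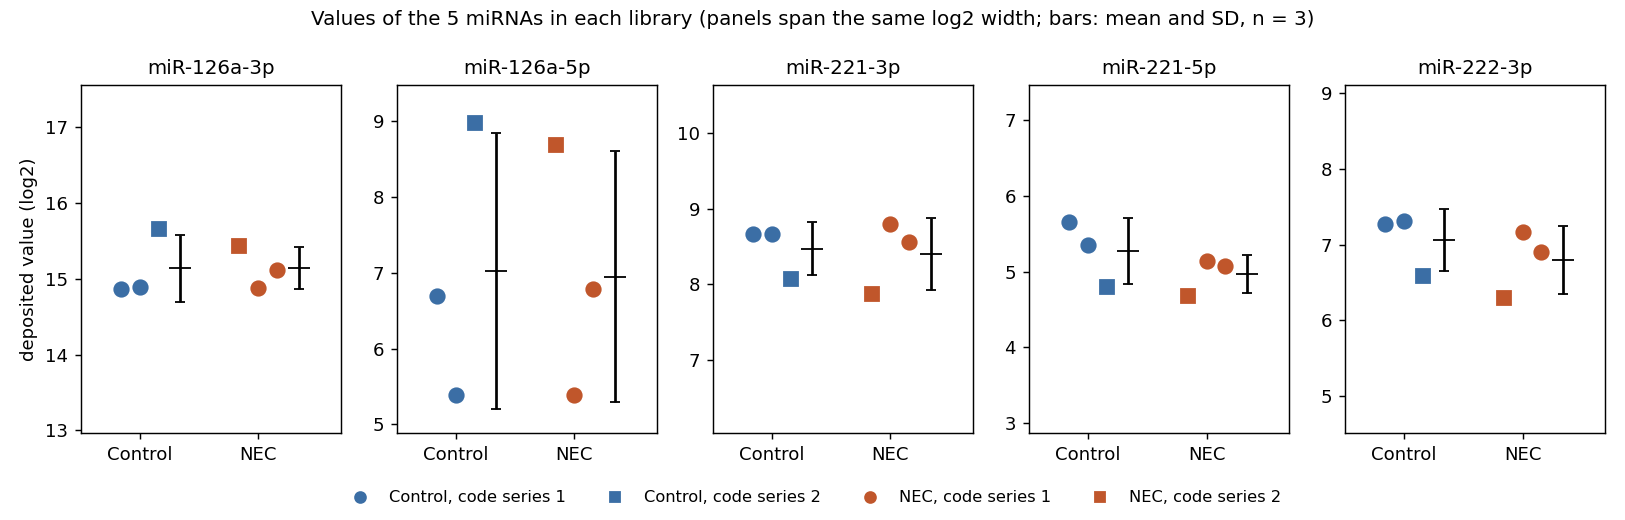
Deposited log2 values of the 5 miRNAs (vertical axis) in 3 Control and 3 NEC libraries, with circles for code series 1, squares for code series 2 and bars for mean ± SD (n = 3); each panel spans the same log2 width around a different level. Control and NEC overlap in every panel, while the squares lie above the circles for both miR-126a arms and below them for miR-221-3p, miR-221-5p and miR-222-3p.

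The libraries of the 2 code series, in contrast, did not overlap for any of the 5 miRNAs, as was the case for 68.1% of all miRNAs tested. Both miR-126a arms were higher in code series 2 and all 3 miR-221 and miR-222 entries were lower, each at an adjusted p under 0.05 from limma with the condition as a covariate. The background is high in both directions, since 222 of 386 miRNAs were called, 25.4% of all tested as higher and 32.1% as lower in code series 2. Code series 2 holds 1 library of each condition only, and the count called was 126 without NEC replicate 1 and 136 without Control replicate 3.

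The value of miR-126a-3p was 15.54 ± 0.16 (SD, n = 2) in code series 2 and 14.94 ± 0.12 (SD, n = 4) in code series 1, a log2 difference of 0.60 (SE 0.16, limma adjusted p = 0.0147). This call depended on the scaling of the libraries. When each library was shifted by its back-transformed total, which moved code series 2 by -0.34 against code series 1, the difference was 0.26 (limma adjusted p = 0.286), and without Control replicate 3 it was 0.43 (adjusted p = 0.178).

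The difference of miR-126a-5p was far wider. It was at 8.83 ± 0.21 (SD, n = 2) in code series 2 and at 6.06 ± 0.78 (SD, n = 4) in code series 1, a log2 difference of 2.77 (SE 0.45, limma adjusted p = 0.00221) that was the 5th highest of the 386. It passed the test under each alternative tried, with differences of 2.09 to 3.10. The code series did not overlap: the highest value of code series 1 was 6.78 and the lowest of code series 2 was 8.69.

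For the miR-221 and miR-222 cluster the 3 entries fell by similar amounts. The log2 difference was -0.70 (SE 0.15, limma adjusted p = 0.00631) for miR-221-3p, -0.72 (SE 0.15, adjusted p = 0.00534) for miR-222-3p and -0.57 (SE 0.16, adjusted p = 0.0194) for miR-221-5p. The median over all miRNAs tested was -0.19, so the 3 entries lay below that median as well as below 0. They were on the side where 32.1% of all miRNAs tested were called, and miR-221-5p was the 277th highest of the 386. After a shift by the median deviation of each library, which moved that median to -0.030, miR-221-5p no longer passed (difference -0.41, adjusted p = 0.0515). After a shift by the back-transformed total without the 10 most abundant miRNAs, neither miR-221-3p (difference -0.49, adjusted p = 0.0510) nor miR-221-5p (difference -0.36, adjusted p = 0.0952) passed. Without NEC replicate 1 none of the 3 passed, at adjusted p-values of 0.0549 for miR-222-3p, 0.0563 for miR-221-5p and 0.0840 for miR-221-3p, and without Control replicate 3 miR-221-5p was at -0.43 (adjusted p = 0.187).

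**Figure D2:**
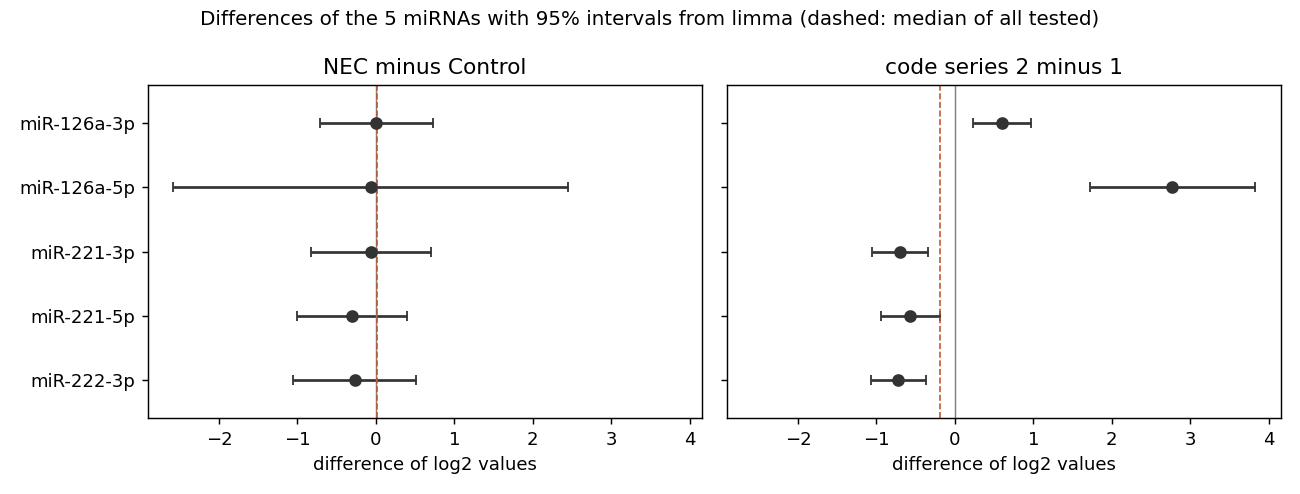
Log2 differences of the 5 miRNAs with their 95% intervals from limma (horizontal axis), NEC minus Control on the left and code series 2 minus 1 on the right, with the median of all 386 miRNAs tested as a dashed line. Every interval on the left covers 0, and on the right the miR-126a arms lie above 0 and the miR-221 and miR-222 entries below it.

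Markers of other cell types were set beside this difference, as summed levels (log2 of the summed back-transformed values of a list). Such a sum is set mainly by the most abundant miRNAs of its list. For epithelium these were miR-215-5p (mean 17.16), miR-192-5p (16.69) and miR-194-5p (16.58). For smooth muscle it was miR-143-3p (18.88), and for leukocytes miR-342-3p (8.75). The 9 miRNAs of intestinal epithelium summed to 18.31 to 18.75 in code series 1 and to 19.02 to 19.19 in code series 2. Of the 9, 5 were called higher and 2 lower, which were miR-200c-3p (-0.72) and miR-375-3p (-0.83). The leukocyte list, of which 4 of 6 miRNAs are in the table, summed to 9.45 to 9.86 in code series 1 and to 8.51 to 8.71 in code series 2, with 2 called lower. Among these, miR-342-3p (-1.31) and miR-155-5p (-0.72) were called, while miR-150-5p (-0.43) and miR-223-3p (-0.19) were not. The miR-142a arms of the list are missing from the table. The entry miR-142b, which is not on the list, had the largest rise of all miRNAs tested, at 3.76. Its values in code series 1 were low and nearly equal, at 3.96 ± 0.014 (SD, n = 4), and were identical in Control replicate 2 and NEC replicate 2. The 5 miRNAs of smooth muscle summed to 18.65 to 19.43 and to 18.93 to 18.97 (1 called higher, 2 lower), and the 4 mesenchymal miRNAs to 11.68 to 11.90 and to 11.94 to 12.01 (1 called lower). The 5 miRNAs of red blood cells, of which 4 were tested, summed to 10.03 to 10.54 and to 10.09 to 10.73 (1 called higher, 2 lower). On the deposited scale the epithelial sum was thus higher in code series 2 without overlap, as both miR-126a arms were. The mesenchymal sum was higher only narrowly (11.90 against 11.94), with 0 of its miRNAs called higher. The leukocyte sum was lower without overlap, as the miR-221 and miR-222 entries were. No shift was applied to these sums, while the back-transformed total was 0.34 higher in code series 2. The part of these cell types in the differences was not tested. Between Control and NEC the summed levels of all 5 lists overlapped.

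The arms of a hairpin come from the same transcript, and a shift of a whole library on the log2 scale leaves their difference unchanged. Since the transformation is not named, this does not extend to other steps of the processing. The log2 value of miR-126a-3p exceeded that of miR-126a-5p by 8.17, 9.51 and 6.67 in Control replicates 1, 2 and 3 and by 6.74, 9.50 and 8.34 in NEC replicates 1, 2 and 3. The gap was widest in the second replicate of each group, where the values of miR-126a-5p were identical. It was narrowest in the libraries of code series 2. Its mean over the 6 libraries was 8.16, the 6th widest among 92 hairpins with both arms tested, where the median size of the gap was 2.51.

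The arm difference of miR-126a was 8.12 ± 1.42 over 3 Control and 8.19 ± 1.38 over 3 NEC libraries (mean ± SD). The difference of these means was 0.073, with p = 0.8 in an exact permutation test (two-sided), where 3 libraries against 3 cannot go below 0.1. In limma across the 92 hairpins it had an SE of 0.92 and an adjusted p of 0.998, and 0% of hairpins were called, with 1 at an unadjusted p under 0.05. With a term for the code series its SE was 0.34 and its adjusted p 0.933, and across the hairpins 14 were at an unadjusted p under 0.05 and 1, which was not miR-126a, was called. Without Control replicate 3 the value was -0.65 and without NEC replicate 2 it was -0.58, neither of them called.

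Between the code series the arms of miR-126a changed by unequal amounts, and the gap narrowed. The arm difference was 6.71 ± 0.049 (SD, n = 2) in code series 2 and 8.88 ± 0.73 (SD, n = 4) in code series 1, a change of -2.17 (SE 0.36, limma adjusted p = 0.000189). This change was the 7th widest of the 92 hairpins, of which 53.3% were called. The arm difference of miR-221 did not change beyond its spread, at 3.36 ± 0.27 in code series 1 against 3.23 ± 0.052 in code series 2 (change -0.13, SE 0.22, adjusted p = 0.615 from limma, 95% interval -0.60 to 0.34).

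**Figure D3:**
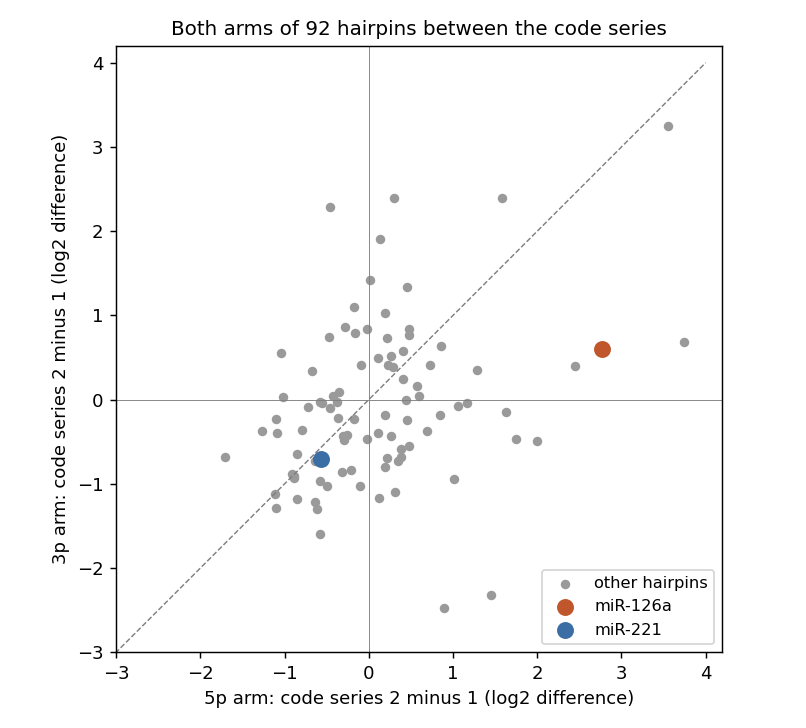
Log2 difference between the code series (series 2 minus 1) of the 5p arm (horizontal axis) and of the 3p arm (vertical axis) for 92 hairpins, with equal change on the dashed line. For miR-126a the 5p arm changed by 2.77 and the 3p arm by 0.60, which puts it far to the right of the line, while miR-221 lies close to the line at -0.57 and -0.70.

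The spread of miR-126a-5p was wide also within code series 1, where its SD over 4 libraries was 0.78, the 8th widest of 386, against a median SD of 0.24 over all miRNAs tested. The value was 5.38234267 in both Control replicate 2 and NEC replicate 2, identical to the last digit deposited. Such identical values occurred in 62 of the 604 miRNAs, all of them between these same libraries, and only 6 of the 62 passed the filter. The median of the 62 identical values was 1.48, and that of miR-126a-5p was the highest of them. Whether it stands for a certain number of reads cannot be read from the table. Without both libraries, an alternative chosen after seeing these values, the change of miR-126a-5p between the code series was 2.09 (adjusted p = 3.77e-06 from limma) and that of the arm difference was -1.54 (adjusted p = 0.0448), with 8 hairpins called. With so few libraries left, these p-values rest mainly on the variance that limma shares across rows. They are not stronger evidence than the fit to all libraries.

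The closest pair among the members was miR-221-3p and miR-222-3p. After each miRNA's mean over the 6 libraries was taken off, their profiles differed by a root mean square of 0.11, against 0.20 for both arms of miR-221 and 1.14 for both arms of miR-126a. Outside the members, miR-540-3p (0.056), miR-1198-5p (0.080) and miR-328-3p (0.091) lay nearer to miR-221-3p than miR-222-3p did. The log2 value of miR-221-3p exceeded that of miR-222-3p by 1.39, 1.35 and 1.48 in Control replicates 1, 2 and 3 and by 1.58, 1.62 and 1.65 in NEC replicates 1, 2 and 3. Every NEC value thus lay above every Control value, in a range that was only 0.30 wide over all libraries. How often other pairs of miRNAs separate in this way was not determined. Of single miRNAs tested, 9.84% did not overlap between NEC and Control.

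The mean was 1.61 ± 0.036 (SD, n = 3) in NEC and 1.41 ± 0.063 (SD, n = 3) in Control, a difference of 0.21. In an exact permutation test (two-sided) p was 0.1, the smallest that this design allows, and 0.5 after Benjamini-Hochberg adjustment over the 5 pairs compared in this way. Code series 1 alone gave 0.26 and code series 2 gave 0.099, and the difference was 0.18 to 0.24 when each library was left out in turn.

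**Figure D4:**
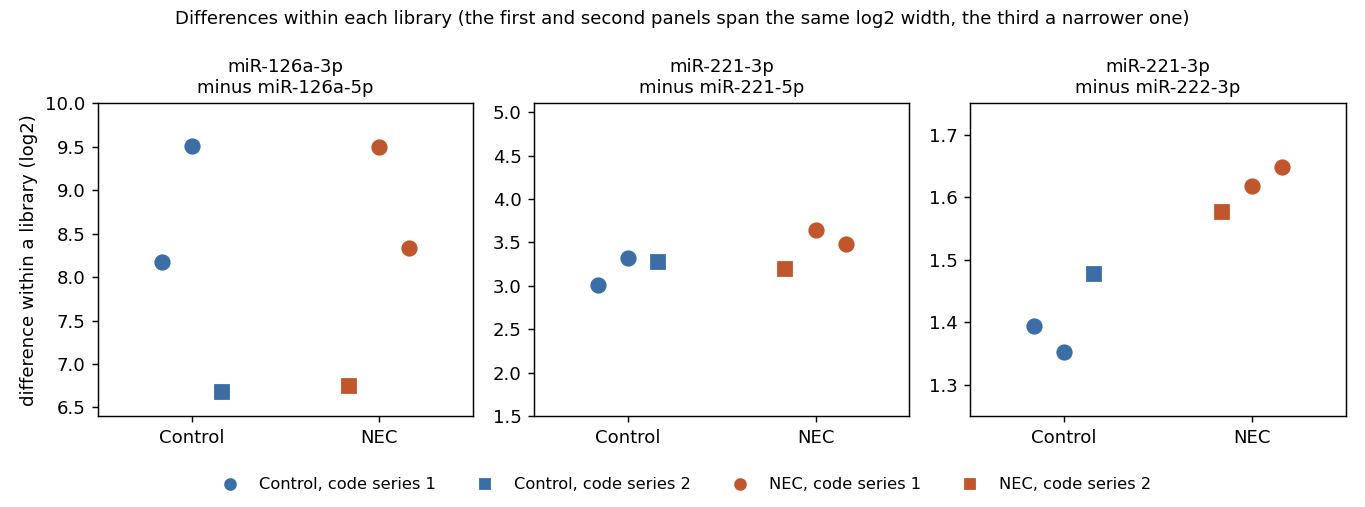
Difference of log2 values within each library (vertical axis) for the arms of miR-126a, the arms of miR-221 and the pair miR-221-3p and miR-222-3p, in 3 Control and 3 NEC libraries, with circles for code series 1 and squares for code series 2; the third panel has a finer scale. The miR-126a gap falls to 6.67 and 6.74 in code series 2, and the gap between miR-221-3p and miR-222-3p is 1.35 to 1.48 in Control and 1.58 to 1.65 in NEC.

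The miRNAs whose profile over the 6 libraries was nearest to that of miR-126a-3p were miR-192-5p, a miRNA of enterocytes, with a root mean square difference of 0.083, miR-135a-5p with 0.090 and miR-7a-5p with 0.093. All 3 had their highest values in Control replicate 3 and NEC replicate 1, the libraries of code series 2. Their change between the code series was 0.66, 0.72 and 0.67. Nearest to miR-221-3p outside the members were miR-540-3p with 0.056, miR-1198-5p with 0.080 and miR-328-3p with 0.091, which had their lowest values in the same libraries, with changes of -0.61, -0.67 and -0.70. These measures describe 6 libraries that share the split into code series.

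Other miRNAs known from the growth and function of blood vessels were counted for the same comparison. Of a list of 37, the table holds 36 and all 36 were tested. None passed an adjusted p under 0.05. In NEC 13 were higher and 23 lower, where of all 386 tested 200 were higher and 186 lower. The median log2 difference was -0.10, against 0.0099 over all miRNAs tested and -0.069 over the 5 members. The list was written with earlier results of these data known. The only one with an unadjusted p under 0.05 was miR-195a-5p, which is known to lower cell cycle genes, with a log2 difference of -0.81 (SE 0.27, limma adjusted p = 0.998).

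The 4 most abundant of the list were miR-21a-5p, an inducible miRNA of injured tissue, with a log2 difference of 0.39 (SE 0.41), the Hox-cluster miR-10a-5p with -0.091 (SE 0.32), miR-378a-3p with -0.52 (SE 0.32) and let-7f-5p with -0.011 (SE 0.31). None of these was called. Between the code series, 9 of the 36 were called higher and 13 lower in code series 2, where 25.4% and 32.1% of all miRNAs were, with a median of -0.32, against -0.57 over the 5 members and -0.19 over all miRNAs tested. The miR-126a arms were thus on the side of the 9, together with miR-101a-3p at 2.47. The miR-221 and miR-222 entries were on the side of the 13, together with miR-23b-3p at -1.06 and miR-92a-3p at -0.99. Known to restrain vessel growth, miR-92a-3p belongs to the miR-17-92 cluster. The other members of that cluster on the list were called higher, miR-17-5p at 0.41, miR-18a-5p at 1.16 and miR-20a-5p at 1.24.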

How the data were processed

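Small RNA of mouse intestine was compared between 3 NEC and 3 Control libraries, which were sequenced as 50 nt single-end reads. The table deposited by the authors gives normalized log2 values, and no value column was left unmatched (0). Build mm10 is named in the submitters' processing notes, and the sources used here do not name the transformation or its tool. Depth is unknown, so no counting interval is given.

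The test of NEC against Control was that of limma (3.58.1, run in R 4.3.3) without a covariate, two-sided, with Benjamini-Hochberg adjustment over 386 miRNAs. The code series were compared with condition as a covariate, and arm differences were tested over 92 hairpins in the same way. The authors' own test, for which their methods name DESeq2, needs counts and was not used. Members and lists were chosen with earlier results of these data known. Named miRNAs are the members, miR-222-5p, the 3 nearest profiles to miR-126a-3p and miR-221-3p, and of the vessel list those at an unadjusted p under 0.05 and the 4 most abundant. In the vessel list, miR-101a-3p, miR-23b-3p, miR-92a-3p, miR-17-5p, miR-18a-5p and miR-20a-5p were named after their values were seen. The same holds for miR-142b and the miRNAs of the cell type lists given singly. Alternatives covered scaling, filters, pseudocounts of 0.1, 1 and 5 on back-transformed values, moderation, covariates and left-out libraries.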

Additional observations from a re-analysis of the deposited data

How the results depend on the processing

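The comparison of NEC with Control called none of the 5 members under any alternative tried. A term for the code series lowered the SE of these differences (from 1.07 to 0.43 for miR-126a-5p, from 0.31 to 0.15 for miR-126a-3p), and depth is unknown. In code series 1 alone 2 miRNAs were called, neither of them a member, and the differences of miR-126a-5p (0.043), miR-221-3p (0.0010) and miR-1198-5p (0.060) changed sign, as did let-7f-5p after shifts by the 75th percentile (0.0032), the back-transformed total (0.029) and the total without the 10 most abundant miRNAs (0.047). With 1 library left out in turn, NEC minus Control ran from -0.14 to 0.26 for miR-126a-3p, from -0.94 to 0.91 for miR-126a-5p, from -0.26 to 0.20 for miR-221-3p, from -0.079 to 0.36 for miR-192-5p, from -0.12 to 0.36 for miR-135a-5p, from -0.11 to 0.33 for miR-7a-5p, from -0.26 to 0.15 for miR-540-3p, from -0.33 to 0.21 for miR-1198-5p, from -0.40 to 0.062 for miR-328-3p, from -0.31 to 0.13 for miR-10a-5p and from -0.22 to 0.24 for let-7f-5p, and without both second replicates let-7f-5p was at 0.014. The differences of miR-222-3p (-0.51 to -0.024) and miR-221-5p (-0.54 to -0.11) kept their sign. The arm difference of miR-126a ran from -0.65 to 0.80, in limma and for the exact test alike, and the count of hairpins called from 0 to 1. That count was 1 in the fit that adjusts for the code series and 11 in code series 1 alone, and the miR-126a hairpin was called in neither.

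Between the code series, the count of miRNAs called ran from 126 to 212 with 1 library left out (126 without NEC replicate 1, 136 without Control replicate 3), where fewer libraries enter the fit. The difference ran from 0.43 to 0.77 for miR-126a-3p, from -0.80 to -0.60 for miR-221-3p, from -0.71 to -0.43 for miR-221-5p and from -0.78 to -0.66 for miR-222-3p. By scaling, miR-126a-3p lost its call at 0.26 (total), miR-221-3p at -0.49 (total without the 10 most abundant) and miR-221-5p at -0.41 (median deviation) and -0.36 (total without the 10 most abundant), and no sign changed. For hairpins the count was 41 to 51 with 1 library left out, 87 with no filter, 29 at a minimum of 5.64 on the log2 scale and 8 without both second replicates, where more or fewer hairpins or libraries enter the test. At that minimum miR-221-5p was not tested.

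Deviations of same-numbered libraries from their group means correlated at -0.69, 0.73 and -0.78 across miRNAs. Their signs follow the code series, which only the second replicates of the groups share. Whether replicate numbers pair the libraries therefore cannot be told from these correlations. With the replicate number as a block, 0 miRNAs were called and miR-126a-3p was at 0.0047 (standard error 0.37, adjusted p = 0.999 from limma).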

Other observations

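The remaining arm of the cluster, miR-222-5p, ranked 502nd of 604 miRNAs and lay below the minimum for testing in each library. Its log2 values were 1.59, 1.45 and 1.92 in Control replicates 1, 2 and 3 and 1.88, 1.45 and 1.73 in NEC replicates 1, 2 and 3, so that its highest values were those of code series 2, where miR-222-3p had its lowest. The gap between miR-222-3p and miR-222-5p was 5.61 ± 0.30 (SD, n = 4) in code series 1 and 4.54 ± 0.18 (SD, n = 2) in code series 2, which was not tested. As with miR-126a-5p, the value of miR-222-5p was identical in Control replicate 2 and NEC replicate 2.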
